A study of Mus musculus with 4 samples.

Results

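CD8 T cells of the injured mouse carotid artery were described from single-cell RNA-sequencing libraries of days 3, 7 and 14 after wire injury. A wire passed along the lumen strips the endothelial lining. According to the authors, the deep form of injury used here also disrupts the internal elastic lamina. A barcode was chosen by its UMI (unique molecular identifier) counts. It had at least 500 genes, at least 1000 UMIs and at most 10% mitochondrial UMIs, at least 2 UMIs of Cd3d, Cd3e and Cd3g together and at least 1 of Cd8a and Cd8b1 together, and no UMI of Cd4, Trdc, Cd163l1, Csf1r or Cd68. In all, 88 cells were selected, with 27 from day 3, 47 from day 7 and 14 from day 14, out of 5828 barcodes in these libraries and 6161 with the uninjured day 0 library. Of the 5828 barcodes, 4094 lay within the quality limits. The mice were male C57BL/6 animals, 11 weeks old before injury according to the labels, and the 3 groups differed in the time after injury alone. Vessels of several mice were pooled into 1 library per time point, thrombosed vessels were left out, and dead cells were removed after enzymatic digestion. A difference between days can therefore not be told apart from a difference between libraries, and the intervals given for single libraries cover counting error only. The day 0 library, pooled from mice before injury, held 2 cells of the same kind among its 249 barcodes within the quality limits, and these were not analysed further.

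CD8 T cells recognise peptides on MHC class I molecules through an alpha-beta T cell receptor, assisted by the CD8 co-receptor, which is built either from an alpha and a beta chain (Cd8a and Cd8b1) or from alpha chains alone. Once activated, they kill target cells with perforin and granzymes released from cytotoxic granules or through Fas ligand, and they secrete interferon gamma and chemokines such as CCL5. Naive and central memory cells carry the chemokine receptor Ccr7, which guides them to lymph nodes and which effector cells lose. Natural killer (NK) cells use the same killing machinery without a T cell receptor, and CD4 helper T cells mainly act through cytokines and CD40 ligand, so both gave a reference. CD4 T cells (112 cells) met the same rule with at least 1 Cd4 UMI and no Cd8a or Cd8b1 UMI. NK cells (178 cells) had no Cd3 UMI, at least 2 UMIs of Ncr1 and Klrb1c together, and no UMI of Cd4, Csf1r or Cd68.

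The 88 cells held 182344, 396077 and 110347 UMIs on days 3, 7 and 14. Their median depth was 7122, 6411 and 5219.5 UMIs per cell. A single cell of day 7 held 62445 UMIs and a single cell of day 14 held 36899, so summed levels are given with and without these cells where they move a result. The libraries were not wholly separate. The day 0 and day 3 libraries shared 152 barcodes and the day 7 and day 14 libraries shared 64, whose copies differed in depth by a median of 22.8-fold and 89.2-fold. The shallowest CD8 T cell of day 3 (2217 UMIs) shared its barcode with a day 0 barcode, and the deepest one of day 7 (62445 UMIs) with a barcode of day 14. The day 3 cell held no UMI of Ccl5 or Nkg7 but 4 of Mki67, and UMIs of the thymocyte genes Ptcra (1) and Dntt (1). Values that rest largely on either cell are given without it as well.

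The label was checked against its marker genes. Cd3d, Cd8a and Cd8b1 belonged to the selection and are no evidence. Ccl5, which the selection did not use, was found in 26 of 27, 45 of 47 and 11 of 14 cells, and the alpha-chain constant gene Trac of the T cell receptor in 25, 45 and 13 cells. At the lower edge of the Cd8 threshold, 11 cells had exactly 1 Cd8a or Cd8b1 UMI. Their summed Ccl5 level was 4627 counts per 1000000 UMIs (CPM), against 12021.5 CPM in the 77 cells with 2 or more, and 2333 CPM in the 124 barcodes just outside, which met every criterion but had no Cd8 UMI. These sums pool days in unequal parts, with 1, 7 and 3 of the 11 cells, 26, 40 and 11 of the 77 and 10, 89 and 25 of the 124 from days 3, 7 and 14. Another 19 barcodes missed the selection by a Csf1r or Cd68 UMI, 17 of them by a single UMI, with 8601 CPM of Ccl5. Markers of other cells were compared. The 10 macrophage markers summed to between 154 and 258 CPM per library, with 1, 10 and 0 cells holding at least 3 of them, and the 6 endothelial markers to between 17.7 and 21.9 CPM. Dendritic markers summed to 236, 242 and 109 CPM, with 4, 10 and 1 cells holding at least 3, although Xcr1, Clec9a and Flt3 were at 0 UMIs. B and plasma cell markers summed to 98.7, 116 and 27.2 CPM, with Cd79a and Ms4a1 at 0. Neutrophil markers summed to between 9.06 and 104 CPM, with 1 cell of day 7 at 6429 CPM. The 8 fibroblast markers were higher, at 302, 808 and 1260 CPM on days 3, 7 and 14, and 5, 34 and 8 cells held at least 3 of them. The highest cell of day 14 reached 10172 CPM of fibroblast markers. NK markers, which include Gzma, summed to 3362, 1295 and 707 CPM, with 4, 8 and 2 cells holding at least 3, and with Klra4 and Klra8 at 0. Gamma-delta markers summed to 0, 50.5 and 127 CPM, with Tcrg-V6 at 0 and Tcrg-C2 at 0, 14 and 10 UMIs. The part of other cells in the results was not tested.

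The share of CD8 T cells in the vessel was similar across the 3 libraries, while their share among T cells was highest on day 3. They made up 2.26% of barcodes within the quality limits on day 3 (95% exact binomial interval 1.49% to 3.27%), 2.33% on day 7 (1.72% to 3.09%) and 1.59% on day 14 (0.872% to 2.65%), and all 3 intervals overlapped. Of barcodes with at least 2 Cd3 UMIs and no Csf1r or Cd68 UMI, which numbered 53, 274 and 71, they made up 50.9% (36.8% to 64.9%), 17.2% (12.9% to 22.1%) and 19.7% (11.2% to 30.9%). The interval of day 3 lay above both later intervals, which overlapped. The number of CD8 T cells was 27 on day 3 and 47 on day 7, while the CD4 gate went from 11 to 84 cells and the gamma-delta gate, with at least 1 UMI of Trdc and Cd163l1 together, from 4 to 43. When each barcode was first thinned to 1000 UMIs, the gate found 12, 24 and 6 cells, or 40.0%, 12.8% and 12.5% of the T cells it then found. At this depth the interval of day 3 (22.7% to 59.4%) overlapped that of day 14 (4.73% to 25.2%) but not that of day 7 (8.35% to 18.4%). A share among captured cells is not a number of cells in the vessel.

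**Figure D1:**
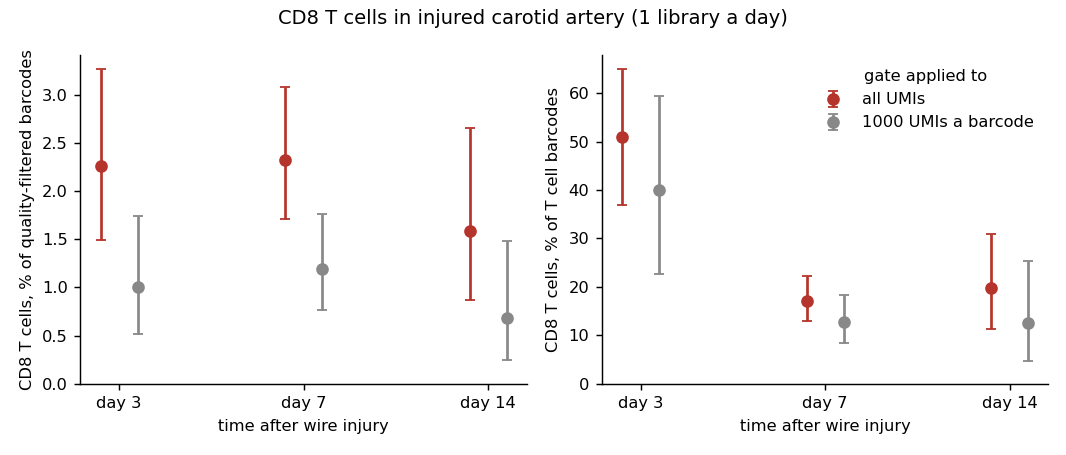
CD8 T cells as a percentage of quality-filtered barcodes (left) and of T cell barcodes (right) on days 3, 7 and 14, with the gate applied to all UMIs (red) or to 1000 UMIs per barcode (grey); bars are 95% exact binomial intervals from 1 library per day. On the left all 3 red intervals hold the range from 1.72% to 2.65%, and on the right day 3 stands at 50.9% above 17.2% and 19.7%.

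The first comparison asked which genes, apart from the co-receptors, separated CD8 from CD4 T cells in the injured artery. Of the fixed lists, 6 of 12 killing genes and 3 of 13 lectin-like receptors were higher in CD8 T cells, and 2 of 5 helper genes (Tnfrsf18 and Cd40lg) were lower. UMIs were summed per library and cell type, and the 3 libraries served as replicates in edgeR's quasi-likelihood test with library as a term. The genes of the gates were left out. Bulk levels of a gate do not tell fewer expressing cells from less RNA per cell. Of 3281 genes tested, 21 (0.64%) were higher and 18 (0.549%) lower in CD8 T cells at an adjusted p below 0.05. The 3 libraries of pooled vessels are of 3 different days and not replicates of 1 condition. With library as a term, the p-values measure how far the difference between cell types varied between these libraries. The spread was estimated over the CD8, CD4 and NK sums together.

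Of the 12 measured genes of the cytotoxic granule and killing list, 6 were higher and none lower, with a median log2 fold change of 1.56 against -0.00 over all genes tested. Gzma encodes granzyme A, a granule protease. It stood at 3055, 843 and 317 CPM in CD8 T cells of days 3, 7 and 14, against 0, 16.0 and 11.3 CPM in CD4 T cells, and the levels of the 2 cell types did not overlap. Its log2 fold change was 6.07 (SE 0.56, edgeR adjusted p = 2.39e-05). Gzmb, granzyme B, stood at 801, 288 and 344 CPM against 0, 69.4 and 67.8 CPM (log2 fold change 2.71, SE 0.47, edgeR adjusted p = 0.00572). Nkg7, a granule membrane protein needed for degranulation, stood at 2413, 1401 and 1640 CPM in CD8 against 284, 308 and 305 CPM in CD4 T cells (log2 fold change 2.53, SE 0.24, edgeR adjusted p = 2.39e-05). Prf1, which encodes the pore-forming perforin, was at 170, 129 and 127 CPM against 17.8, 7.11 and 11.3 CPM, a log2 fold change of 3.77 (SE 0.47). Gzmk and Cst7, the latter an inhibitor of granule cathepsins, rose by 2.62 and 1.74 on the log2 scale. Fasl, the Fas ligand, was higher in all 3 libraries but did not pass the test (log2 fold change 1.16, edgeR adjusted p = 0.201). Without the day 7 library, which held the most cells, Prf1 (log2 fold change 3.23), Gzmk (4.17) and Cst7 (1.33) were no longer called, and 6 genes in all were called higher. Gzmk (2.30) and Cst7 (1.89) were also lost without day 3, Cst7 (1.87) without day 14, and both in DESeq2.

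Ccl5 (ENSMUSG00000035042), a chemokine that attracts T cells and monocytes, had the smallest adjusted p of all genes. Its level was 22518, 7521 and 6398 CPM in CD8 and 3109, 1211 and 576 CPM in CD4 T cells, and no CD4 value reached a CD8 value. The log2 fold change was 2.99 (SE 0.18, edgeR adjusted p = 1.55e-07). It was the only one of the 7 measured cytokine and chemokine genes to pass the test. Ccl4, another chemokine, differed by 3.38 on the log2 scale, with 669, 682 and 172 CPM against 17.8, 24.9 and 136 CPM (edgeR adjusted p = 0.082). Xcl1, which attracts cross-presenting dendritic cells, differed by 4.85 with an SE of 1.43 (edgeR adjusted p = 0.136). Its spread between libraries was wide.

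All 13 killer-cell lectin-like receptors could be tested, and Klrc1, Klrc2 and Klre1 were higher in CD8 T cells, with a list median of 1.52. Klrc1 and Klrc2 encode NKG2A and NKG2C, an inhibitory and an activating receptor for the MHC class I molecule Qa-1. Klrc1 had 455, 202 and 272 CPM against 17.8, 37.4 and 0 CPM (log2 fold change 3.22, SE 0.46). Klrc2 had 230, 159 and 72.5 CPM against 0, 10.7 and 11.3 CPM, a log2 fold change of 3.96 (SE 0.49), and Klre1 changed by 4.05 (SE 0.54). Their partner Klrd1 (CD94), at 609, 432 and 326 CPM against 195, 85.4 and 373 CPM, overlapped on day 14 and did not pass the test (edgeR adjusted p = 0.198). Cd160, a receptor for MHC class I molecules and HVEM, had 20, 49 and 10 UMIs in CD8 T cells and none in the CD4 gate. Over the 3 libraries it was at least 27.0-fold higher, taking 3 UMIs over the group as the floor. It was the only one of the 5 measured inhibitory receptor genes to pass. Klrc2, Klre1 and Cd160 were not called without the day 7 library, at log2 fold changes of 4.13, 6.79 and 6.78, whereas Klrc1 was. Lectin-like receptors are close paralogs, and reads shared between them may have been assigned differently from gene to gene.

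Among the 11 measured transcription factors of effector and memory cells, Eomes and Zeb2 were higher and none was lower (list median 1.12). Eomes directs the cytotoxic and memory programme of CD8 T and NK cells. It had 10, 40 and 10 UMIs, or 54.8, 101 and 90.6 CPM, against a single UMI in all CD4 T cells (log2 fold change 5.70, SE 0.78, edgeR adjusted p = 0.000846). On day 14, only 2 of the 10 Eomes UMIs remained without the deepest cell, at 34.5 CPM in the 10 other cells with a Cd8b1 UMI. Tbx21, which encodes T-bet, had a log2 fold change of 1.39 and did not pass (edgeR adjusted p = 0.168). Ly6c2, a surface protein of memory CD8 T cells and monocytes, was the single called gene of 9 measured in the naive and central memory list. It stood at 932, 702 and 689 CPM against 124, 151 and 136 CPM (log2 fold change 2.35, SE 0.36, edgeR adjusted p = 0.00236). Neither Eomes nor Zeb2 was called without day 7 (log2 fold changes 6.22 and 1.60), and Zeb2 was also lost without day 3 or day 14. Itgax (CD11c) rose by 3.68, and Crtam, an adhesion molecule of activated cytotoxic cells, by 5.09 on the log2 scale. Crtam had 10, 31 and 5 UMIs against a single UMI in CD4 T cells. The call of Itgax was lost without day 7 (5.75) and in DESeq2, as was that of Zeb2.

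The genes lower in CD8 T cells included Maf, Icos, Cd40lg, Tnfsf11, Tnfrsf18, Hif1a and Odc1. Maf, a transcription factor of helper and regulatory cells, stood at 43.9, 48.0 and 99.7 CPM against 764, 519 and 497 CPM in CD4 T cells, and fell by 3.29 on the log2 scale (SE 0.39, edgeR adjusted p = 0.000298). Icos, a co-stimulatory receptor, stood at 54.8, 70.7 and 127 CPM against 160, 454 and 757 CPM (log2 fold change -2.38, SE 0.33). The helper ligand Cd40lg had 0, 1 and 6 UMIs against 4, 62 and 16, a log2 fold change of -3.35 whose call was lost without day 3 (-3.07). Tnfsf11 (RANK ligand) and Tnfrsf18 (GITR) fell by 3.67 and 1.84. The hypoxia-responsive factor Hif1a and Odc1, the first enzyme of polyamine synthesis, fell by 2.38 and 2.21, and Ramp3, a subunit of the adrenomedullin receptor, by 5.49. The calls of Tnfsf11 (log2 fold change -3.52), Hif1a (-2.22) and Ramp3 (-4.53) were lost without day 7, and that of Tnfrsf18 (-1.57) without day 3 or day 14. Foxp3, the factor of regulatory T cells, had 0 UMIs in CD8 T cells, which allows up to 4.36 CPM. No gene passed the test in the lists of chemokine receptors (8 measured), T cell receptor constant genes (3), interferon response (7), immediate early genes (14), MHC class I (12) and interleukin receptors (11). Trac was close between the cell types, at 762, 692 and 598 against 746, 841 and 734 CPM.

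Of the 28 genes of this comparison that were named by the rule or called within a list, 10 were called under every alternative in which they could be tested. These were Ccl5, Nkg7, Gzma, Gzmb, Klrc1, Ly6c2, Crtam, Maf, Icos and Odc1. No direction reversed under any of these alternatives. The 28 genes were chosen partly by size of change, and 15 of them were not called without day 7.

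The second comparison asked what CD8 T cells shared with NK cells and where they differed. In the same fit, 62 genes (1.89%) were higher and 68 (2.07%) lower in CD8 T cells than in NK cells. Of the fixed lists, 8 of 17 T cell receptor signalling genes were higher, 9 of 13 lectin-like receptors were lower, and of 12 killing genes 1 was higher and 3 lower.

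Of the 17 measured T cell receptor signalling genes, 8 were higher and none lower. Cd5 and Cd6, surface receptors that tune the T cell receptor signal, and Themis, a signalling protein of T cell selection, had 86, 87 and 89 UMIs in CD8 T cells and 0 in NK cells. They were at least 46.1-, 46.6- and 47.7-fold higher, with 3 UMIs over the NK group as the floor. Trac stood at 762, 692 and 598 CPM against 47.1, 15.0 and 8.36 CPM in NK cells (log2 fold change 5.01, SE 0.38, edgeR adjusted p = 1.6e-06). Lat, the adaptor that links the receptor to downstream enzymes, rose by 3.11 (SE 0.32), Bcl11b, a transcription factor of T cell identity, by 3.99 (SE 0.42), and Lck, the receptor's proximal kinase, by 1.09 (SE 0.29). The call of Lck was lost in DESeq2 and when any 1 library was left out, with log2 fold changes of 0.76 to 1.25. The NK gate required 0 Cd3 UMIs, so part of this contrast is set by the gates.

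The 12 killing genes had a median log2 fold change of -0.89 against 0.01 over all genes. Nkg7 was at 2413, 1401 and 1640 CPM in CD8 T cells and at 2783, 1682 and 1488 CPM in NK cells (log2 fold change 0.00, SE 0.21, edgeR adjusted p = 0.999). Ccl5 had a log2 fold change of 0.35 (SE 0.16, edgeR adjusted p = 0.288) and Gzmb of -0.94 (SE 0.37, edgeR adjusted p = 0.182). Gzma was lower in CD8 T cells by 2.54 on the log2 scale (SE 0.36, edgeR adjusted p = 0.000391), a call that DESeq2 did not make, and so were Prf1, with a log2 fold change of -2.42 (SE 0.28), and the granzyme B inhibitor Serpinb9, with -1.50 (SE 0.34). Serpinb9 was not called without day 3 (-1.17) or day 14 (-1.23). Gzmk went the other way. It had 28, 38 and 14 UMIs in CD8 T cells against 1, 6 and 1 in NK cells, a log2 fold change of 4.12 (SE 0.52, edgeR adjusted p = 0.000162). Gzma and Gzmk differed in opposite directions between the same cells in all 3 libraries.

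Of the 13 lectin-like receptors, 9 were lower in CD8 T cells and none higher, with a list median of -3.04 against 0.01 over all genes. Klra4 and Klra8, receptors of the Ly49 type, had 0 UMIs in CD8 T cells and were at least 141-fold and 122-fold higher in NK cells. Klrb1b fell by 7.08 (SE 0.54). Klrc2 was not called without day 7 (-1.58) or day 14 (-1.18), and Klra9 without day 3 (-2.89). Klrc1 (log2 fold change -0.71), Klrd1 (-0.92) and Klrk1 (-1.46), which encodes NKG2D, did not pass the test. Tyrobp and Fcer1g, signalling adaptors of NK receptors, fell by 5.05 (SE 0.64) and 4.33 (SE 0.59). Eomes was lower than in NK cells by 1.41 (SE 0.34, edgeR adjusted p = 0.0255), so that its order was NK, CD8 and CD4. Its call against NK cells was lost without day 3 (log2 fold change -0.95), without day 7 (-1.59) and in DESeq2. Pdcd1 (PD-1) rose by 3.10 (SE 0.65) at a low level of 43.9, 80.8 and 45.3 CPM, and was not called by DESeq2, nor was Klra8. Ifi27l2a, an interferon-induced gene, had 70, 149 and 191 UMIs against 6, 11 and 0 in NK cells (log2 fold change 5.37, SE 0.54).

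**Figure D2:**
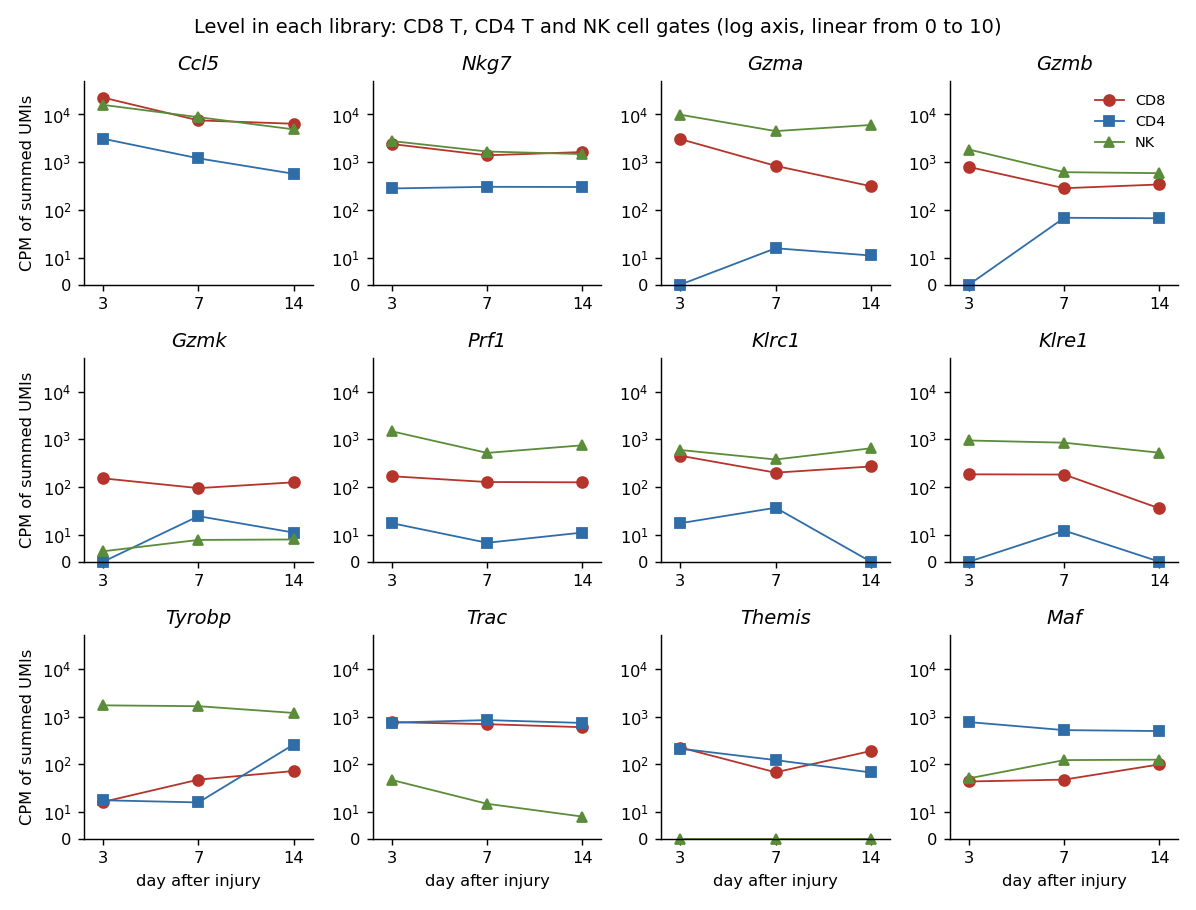
Level of 12 genes in the summed CD8 T, CD4 T and NK cells of each library (CPM, log axis that is linear from 0 to 10) on days 3, 7 and 14. Ccl5, Nkg7 and Gzma lie above the CD4 T cells on every day (Gzma 317 CPM or more against 16.0 or less), Gzmk lies above both other cell types, and Tyrobp lies below the NK cells.

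**Figure D3:**
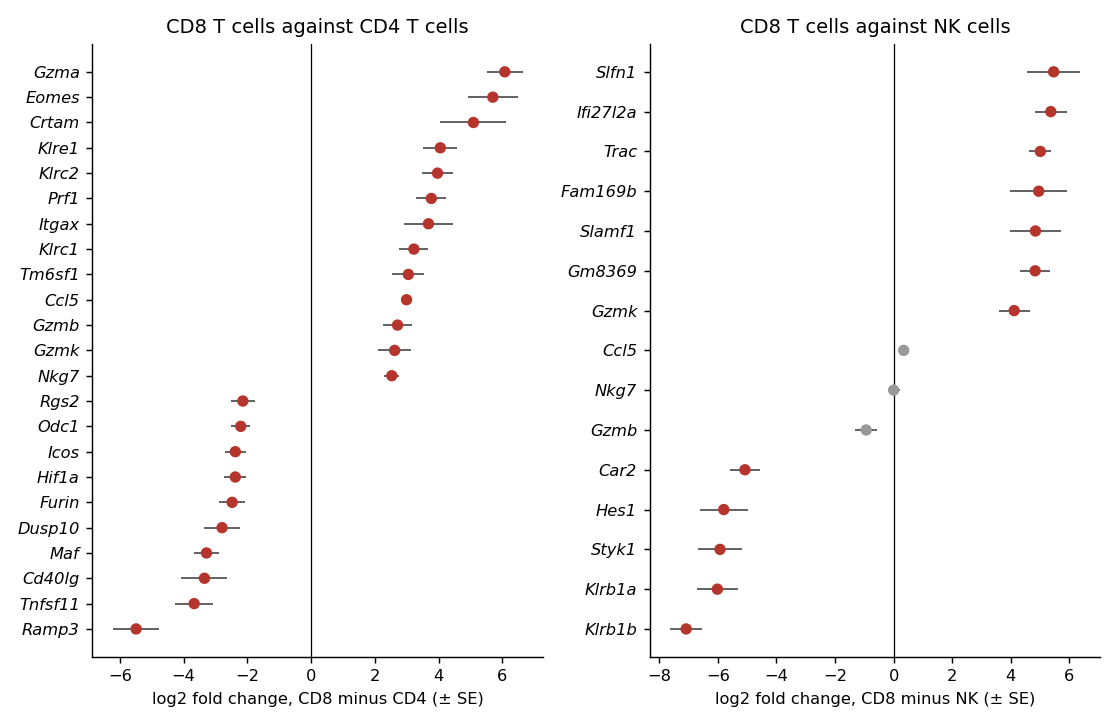
Log2 fold changes of named genes from edgeR, CD8 minus CD4 T cells (left) and CD8 minus NK cells (right), with bars of 1 SE over 3 libraries; red points passed an adjusted p of 0.05 and grey points did not, and genes with 0 UMIs in a group are left out. Gzma is at 6.07 against CD4 T cells, and Nkg7 (0.00) and Ccl5 (0.35) are grey against NK cells.

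Between days, there was 1 library per time point and no test. A gene was described as past 2-fold when the ratio of its CPM values, each with 50 CPM added, was over 2 or under 0.5, among genes with at least 20 UMIs over both days. From day 3 to day 7, 57 of 3817 genes (1.49%) were past 2-fold higher and 68 (1.78%) lower. Between days 3 and 14 the numbers were 81 (3.65%) and 92 (4.15%) of 2218 genes, and between days 7 and 14 they were 55 (1.61%) and 69 (2.02%) of 3416 genes. The comparisons with a shared day are not independent. A gene could reach 20 UMIs through its higher day alone, so counts of measured list genes past 2-fold are partly set by this filter.

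Ccl5, Gzma and Gzmb were highest on day 3. Ccl5 had 22518 CPM on day 3 (95% exact Poisson interval 21834 to 23217), 7521 on day 7 and 6398 on day 14. The median cell had 21904, 9303 and 5050 CPM, so the order was the same in the median cell. Excluding the deepest cell of each library gave 23652, 8923 and 9013 CPM. Gzma stood at 3055 (2806 to 3319), 843 (755 to 939) and 317 CPM (221 to 441), and was detected in 16 of 27, 13 of 47 and 3 of 14 cells. Thinned to 1000 UMIs, 59.3%, 23.4% and 21.4% of cells still had a Gzma UMI, against 1.55%, 3.10% and 0% of fibroblasts thinned in the same way, whose median depth was 27776, 10078 and 18557.5 UMIs. On day 14, 71.4% of the 35 Gzma UMIs and 44.7% of the 38 Gzmb UMIs came from 1 cell at the edge of the selection, with 2 Cd3 UMIs, 1 Cd8a UMI and no Cd8b1, Trbc1 or Trbc2 UMI. The 11 cells of day 14 with Cd8b1, which leave it out, had 105 CPM of Gzma and 221 CPM of Gzmb. The deepest cell of day 14 held another 17 of the 38 Gzmb UMIs. Without it, the other 10 cells with Cd8b1 had 155 CPM of Gzma and 68.9 CPM of Gzmb. Gzmb stood at 801, 288 and 344 CPM, with ratios of 0.359 (0.279 to 0.462) on day 7 and 0.43 (0.293 to 0.618) on day 14 against day 3. Prf1 had ratios of 0.757 (0.475 to 1.22) and 0.746 (0.367 to 1.44), whose intervals held 1, as did those of Gzmk. On day 14, a single cell held 85.7% of the 14 Gzmk UMIs. Nkg7, in 26, 45 and 13 cells, had ratios of 0.581 (0.511 to 0.66) and 0.68 (0.569 to 0.81). Of the 13 measured killing genes, 3 were past 2-fold lower on day 7 (Gzma, Gzmb and Gzmm), 4 on day 14 (Gzma, Gzmb, Serpinb9 and Serpinb6b) and none higher on either day. When each cell had equal weight, 2 were lower on day 7 and 2 on day 14. With the gate on Cd8b1 alone, 2 were lower on day 7 and 4 on day 14. Without the deepest cells, 3 of 13 and 5 of 12 were lower.

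Of the 11 effector and memory transcription factors measured on day 7 against day 3, Irf8 and Ikzf2 were past 2-fold higher and Hopx lower. The deepest cell held 55.0% of the 40 Irf8 UMIs of day 7, and without the deepest cells 1 factor was higher and 2 were lower, without shared barcodes 1 and 1. On day 14, Ikzf2 was higher and Tbx21, Bhlhe40 and Hopx were lower, of 8. Klrg1, a receptor of short-lived effector cells, was at 104, 15.1 and 9.06 CPM, in 9, 5 and 1 cells. Cx3cr1, a chemokine receptor of such cells, was at 175, 45.4 and 90.6 CPM, and Tbx21 at 208, 85.8 and 54.4 CPM. Hopx was at 543, 222 and 136 CPM and was found in 24, 36 and 6 cells. Lgals3, which encodes galectin-3, was at 384, 58.1 and 72.5 CPM. Runx3, the factor that sets the CD8 lineage, differed less, at 455, 359 and 299 CPM. Il7r, the receptor for interleukin 7 that long-lived cells keep, was highest on day 14, with 60.3, 182 and 417 CPM in 8, 22 and 7 cells. Its ratio was 3.01 (1.59 to 6.3) on day 7 and 6.91 (3.53 to 14.8) on day 14.

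Cytokines and chemokines differed in their course. Ifng had 686, 333 and 81.6 CPM, in 15, 25 and 4 cells, and 210 CPM on day 7 without the deepest cell. Its ratio between days 14 and 3 was 0.119 (0.0532 to 0.233). Ccl4 was as high on day 7 as on day 3 (682 and 669 CPM) and at 172 CPM on day 14. Without the deepest cell its day 7 level was 315 CPM. Xcl1 was at 0 UMIs in all 27 cells of day 3, which allows up to 16.5 CPM and up to 11.1% of cells with a UMI. It had 761 UMIs on day 7, in 20 of 47 cells, and 40 UMIs on day 14, in 6 of 14 cells. The deepest cell of day 7 held 586 of the 761 UMIs. Without it, the level was 525 CPM, still at least 31.9-fold above day 3 with 3 UMIs of day 3 as the floor. NK cells of day 3 held 730 Xcl1 UMIs, and 56.2% of them had one after thinning, so the gene was measured in that library. Ccl3 on day 7 also came almost wholly from the deepest cell, and its log2 ratio of 1.42 against day 3 turned to -0.67 without it. Tnf, Il2 and Csf2 had at most 11 UMIs in any library, and Il10 and Il17a had 0.

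**Figure D4:**
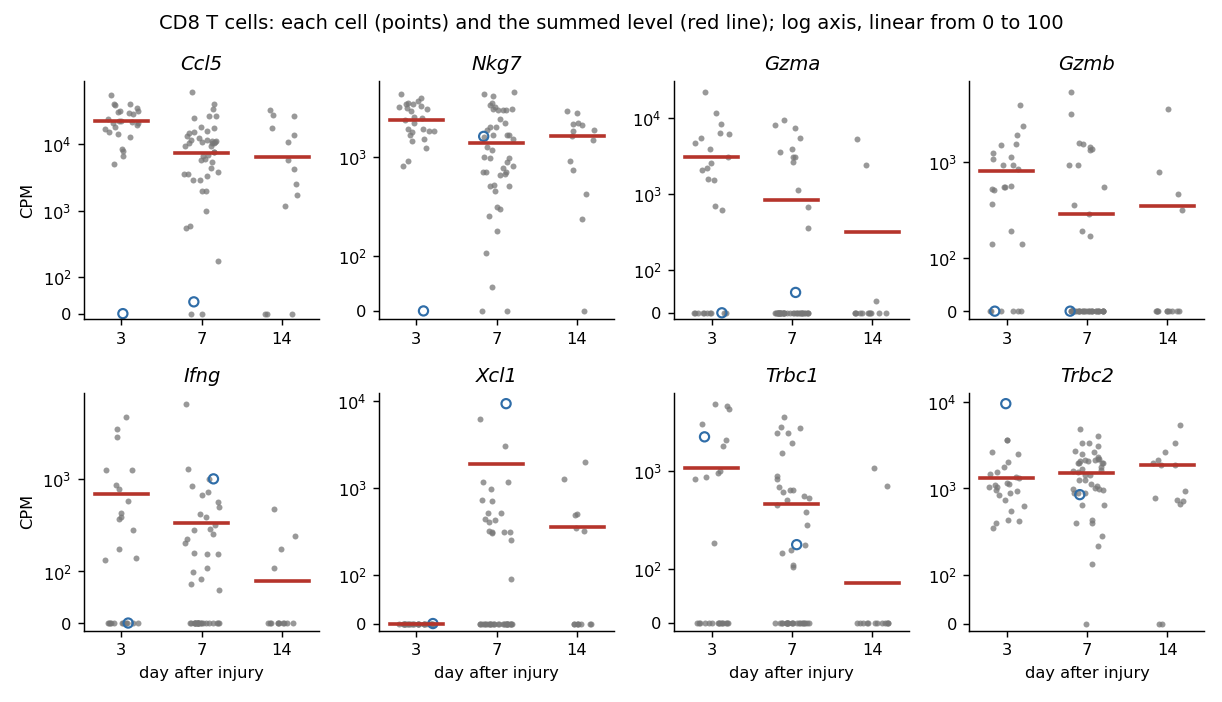
CPM of 8 genes in each CD8 T cell (points) by day, on a log axis that is linear from 0 to 100; red lines are the summed level of the library, and open circles are the 2 cells whose barcode also occurs in another library. Ccl5 is found in nearly all cells with a lower median on later days (21904, 9303 and 5050 CPM), Xcl1 is at 0 in all cells of day 3, and 1 open circle lies highest for Xcl1 on day 7.

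Genes of the residency and inhibitory receptor lists ranged from frequent to nearly absent. Itgae (CD103), the integrin of tissue-resident CD8 T cells in epithelia, had 1 UMI in the 88 cells, and Zfp683 (Hobit) had 4. Cd69 was found in 17, 34 and 9 cells, at 247, 306 and 236 CPM, Cxcr6 in 15, 20 and 5 cells, Rgs1 in 17, 34 and 8, and the integrin beta 1 gene Itgb1 in 25, 37 and 11. Cd160 was found in 14, 20 and 5 cells. Pdcd1 was found in 4, 15 and 3 cells, Lag3 in 4, 3 and 3 and Tigit in 1 cell of day 14. Tox, a factor of chronically stimulated cells, stood at 38.4, 55.5 and 172 CPM and was found in 6, 15 and 8 cells. On day 14, 57.9% of its 19 UMIs came from a single cell.

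Genes of naive and central memory cells were sparse. Ccr7 was detected in 1, 7 and 1 cells, with 17, 27 and 1 UMIs, whereas Gzma, Gzmb or Gzmk was detected in 22, 24 and 6 cells. Of the naive list, Il7r, Satb1 and Foxp1 were past 2-fold higher on day 7 than on day 3 and Klf2 lower, out of 11 measured, with a median log2 ratio of -0.21. Without the deepest cells 5 were higher and 0 lower, with a median of 0.87, and without shared barcodes 5 were higher and 0 lower, with a median of -0.12. Satb1, a chromatin organiser of naive T cells, was at 54.8, 318 and 54.4 CPM.

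Day 7 held a subset with a distinct profile. Ikzf2, which encodes the transcription factor Helios, was found in 2 of 27, 14 of 47 and 4 of 14 cells, at 16.5, 417 and 217 CPM. Of the 14 cells of day 7, 11 had no Cd8b1 UMI, whereas 3 of the 4 cells of day 14 had one. Division by Cd8b1, chosen after the values had been seen, gave 35 cells with Cd8b1 and 12 with Cd8a alone on day 7. The cells with Cd8a alone were not shallower, at a median of 7609.5 against 5936 UMIs. Every cell of day 3 had a Cd8b1 UMI, and on day 14 there were 11 with and 3 without. These are cells of 1 library, and the differences below are a description without a test.

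The Cd8a-only cells of day 7 had Ikzf2 in 11 of 12 cells, at 1053 CPM (867 to 1269), against 3 of 35 cells and 186 CPM (140 to 242) in cells with Cd8b1. Fcer1g was found in 8 of 12 against 7 of 35 cells. The NK-type receptors Klra7, Klre1 and Klrc2 were found in 6, 9 and 9 of 12 cells, against 3, 9 and 11 of 35. Xcl1 was found in 9 of 12 against 11 of 35 cells, at 864 against 2305 CPM, or 368 CPM without the deepest cell. Gzma and Gzmb were rarer in them, and Gzmk was found in 4 of 12 against 13 of 35 cells. Gzmb was found in 0 of 12 against 14 of 35 cells, with 0 against 392 CPM, and Gzma in 1 of 12 against 12 of 35. Ccl5 and Nkg7 were found in all 12 cells, at 4613 and 731 CPM, compared with 8575 and 1644 CPM in the cells with Cd8b1. Ifng was at 56.9 against 433 CPM and Ccl4 at 66.4 against 905 CPM, or against 280 and 429 CPM without the deepest cell. Their detection was closer, with Ifng in 6 of 12 against 19 of 35 cells and Ccl4 in 6 of 12 against 21 of 35. Cd28, the main co-stimulatory receptor, was found in 4 of 12 against 21 of 35 cells. The survival gene Bcl2 was at 427 against 175 CPM, and Tcf7, a factor of naive and memory cells, at 370 against 172 CPM. Taken by Ikzf2 instead, 12 of the 14 cells of day 7 held Xcl1, 12 held Klre1, 14 held Il2rb, 14 held Trac and none held Gzmb, against 8, 6, 24, 31 and 14 of the other 33.

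**Figure D5:**
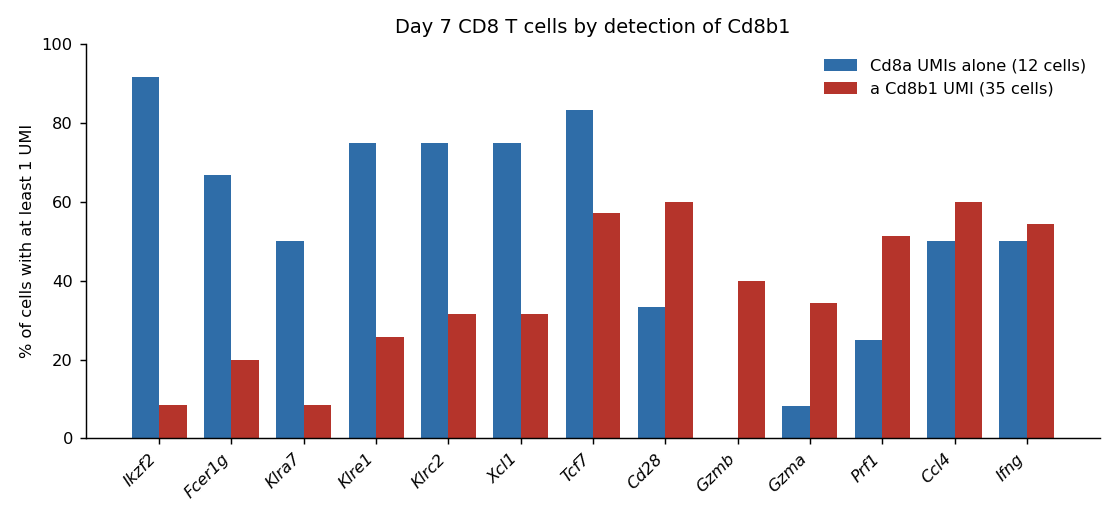
Percentage of day 7 CD8 T cells with at least 1 UMI of 13 genes, for the 12 cells with Cd8a UMIs alone (blue) and the 35 cells with a Cd8b1 UMI (red). Ikzf2 is found in 11 of 12 against 3 of 35 cells, and Gzmb in 0 of 12 against 14 of 35.

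Cell cycle genes were highest on day 14 and rested on very few cells. Of the 14 genes of the proliferation list, 10 were measured on days 3 and 14. All 10 were past 2-fold higher on day 14, with a median log2 ratio of 1.84 against -0.04 over all genes. Against day 7, 10 of 13 were higher. A gene was measured if it reached 20 UMIs over both days, as Mki67 did with 5 on day 3 and 23 on day 14. These counts, and those below, are therefore partly set by the filter and are no support for the difference. Top2a had 43.9, 35.3 and 372 CPM and Mki67 27.4, 53.0 and 208 CPM. Without the cells of shared barcode, Mki67 had 5.55 CPM on day 3, where that cell held 4 of 5 UMIs, and 56.9 CPM on day 7. Top2a UMIs came from 3, 8 and 3 cells, and Mki67 UMIs from 2, 6 and 2. A cell of 8103 UMIs held 16 of the 23 Mki67 UMIs of day 14, and the deepest cell held the other 7. Without the deepest cell, 5 of 6 measured genes were past 2-fold higher than on day 3, with a median of 1.63. When each cell had equal weight, 5 of 10 were, with a median of 0.99, and Rrm2 turned to a log2 ratio of -0.20. Cells with at least 5 proliferation genes numbered 3 of 27, 6 of 47 and 2 of 14. Among them, 1 of day 3 and 1 of day 7 were the cells of shared barcode. Whether the share of such cells differed on day 14 was not tested.

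T cell receptor chains differed between libraries. Trbc2 was found in 27, 46 and 12 cells, at 1311, 1502 and 1876 CPM, and Trbc1 in 12, 25 and 2 cells, at 1091, 465 and 72.5 CPM. Trbc1 and Trbc2, the beta-chain constant genes, are near-identical and a cell uses either, so counts may be shared between them. Of cells with at least 3 such UMIs, 7 of 26, 8 of 46 and 1 of 13 had more Trbc1 than Trbc2. A variable beta gene was detected in 19 of the 88 cells, since the 3′ kit reads the other end of the transcript, and 8 different genes led, with Trbv12-2 in 7 cells. Clonal make-up was therefore not measured.

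Of the 6 lectin-like receptors measured, 3 were past 2-fold lower on day 14 than on day 3 (Klrc2, Klre1 and Klrg1) and none higher, with a median log2 ratio of -1.06 against -0.04 over all genes. Without the deepest cells 2 of 6 were lower (median -0.72), and with the gate on Cd8b1 alone 6 of 6 (median -1.34). Of 17 T cell receptor signalling genes, Lat, Cd28 and Themis were past 2-fold lower on day 7 than on day 3 and none higher, with a median of -0.44 against -0.06. When each cell had equal weight, 1 of 17 was (median -0.20). None of the 12 MHC class I genes was past 2-fold in either direction on day 7 against day 3. Over all genes, 1.49% were past 2-fold higher and 1.78% lower, so a count of 0 in a list of this size is near those shares. On day 14 against day 3, Nlrc5 of this list was lower. B2m was at 2435, 2138 and 2311 CPM. None of the 8 measured interferon response genes was past 2-fold on day 7 against day 3, which is likewise near those shares. On day 14 against day 3, Bst2 of that list was higher. Ifi27l2a, outside that list, went from 384 and 376 to 1731 CPM on day 14, in 8 of 14 cells. Of 14 immediate early genes, Fos, Fosb and Jun were past 2-fold higher on day 14 than on day 3, and Egr1, Nr4a1, Nr4a3 and Nfkbia lower. Jun was at 170, 283 and 517 CPM, and Nr4a1, a target of T cell receptor signalling, at 367, 146 and 90.6 CPM. S100a4 was at 1146, 295 and 1758 CPM and Hspa1b, a heat-shock gene that digestion can induce, at 1119, 323 and 652 CPM. Col1a2 and Eln were among the 6 largest increases on day 7, at 49.4 and 32.9 CPM on day 3 against 263 and 232 CPM, together with the fibroblast markers given above. The part of stromal RNA in these 2 genes was not tested.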

How the data were processed

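Carotid cells of 4 time points were sequenced with the 10x Chromium 3′ kit, 1 library each. The authors deposited raw UMI counts per gene and barcode, made with Cell Ranger (3.0.2 in the file headers; the methods name another version). The build named in the sources, GRCh38, is a human one, so no coordinates are given. Barcodes were gated as described, and no doublets were removed in the main results. Scrublet at its own threshold marked 1, 2 and 2 barcodes of the injured libraries, and whether it missed doublets was not tested. Removal at a fixed rate took 0 CD8 T cells. Counts summed per library and gate (9 sums; CD8, CD4, NK) were tested in edgeR 4.0.16 (quasi-likelihood, TMM, filterByExpr, library as a term, Benjamini-Hochberg), with DESeq2 1.42.0 as an alternative. Days were compared by CPM with exact intervals. Named genes were the 10 most changed called genes in each direction or, by day, the 6 most changed, together with list members. The edgeR fit was also run on simulated counts, for CD8 against CD4 alone and with no difference between libraries other than depth. No result here rests on that run. Total counts were 18989081, 27973418 and 13329564 UMIs on days 3, 7 and 14. Members and gene lists were chosen with earlier results of these data known. Reads of near-identical genes (Trbc1 and Trbc2, Klra, Klrc, granzyme and H2 genes) may be split unevenly.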

Additional observations from a re-analysis of the deposited data

Results flagged for a closer look

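The day 0 and day 3 libraries shared 152 barcodes, and the day 7 and day 14 libraries shared 64, while the day 3 and day 7 libraries shared 1 and the other pairs 0. The sharing stood out because the comparisons made no use of barcode identity. Among the CD8 T cells it touched the shallowest cell of day 3 and the deepest cell of day 7. Its cause was not tested.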

How the results depend on the processing

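The fit already paired the cell types of a library, since library was a term. Without the filter on low counts, 89 genes were higher and 72 lower than in CD4 T cells, and 160 and 174 than in NK cells. DESeq2 called 37 genes lower than in NK cells. Leaving out 1 library gave 6 to 25 higher and 13 to 20 lower against CD4 T cells, and 29 to 54 and 41 to 76 against NK cells, each lowest without day 7. Gating on 1000 UMIs gave 1.00%, 1.19% and 0.682% of barcodes, 92.3%, 47.1% and 66.7% of CD8 plus CD4 T cells (71.1%, 35.9% and 45.2% on all UMIs), and 12.8% of T cells on day 7, as did the gate on Cd8b1 alone. With 10 CPM added, genes past 2-fold numbered 254 higher and 247 lower on day 7 against day 3, 160 and 199 on day 14 against day 3, and 164 and 227 on day 14 against day 7. On day 7 against day 3, 28 were higher without the deepest cells and 27 without shared barcodes. With equal weight for each cell, 50 were higher on day 14 than on day 3. The log2 ratio of Ccl3 between days 7 and 3 turned to -0.15 with equal weight, -0.67 without the deepest cells and -0.61 without shared barcodes, and that of Rrm2 between days 14 and 3 to -0.20 with equal weight; the cause was not tested beyond these values. Removing shared barcodes, and the fits without the deepest cells, were chosen after seeing the data. With 14 to 47 cells a day, genes of low level are limited by counting error.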
